A study of Mus musculus with 8 samples.

Results

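Sorted stromal cells of visceral fat were compared with cultured embryonic fibroblasts across all genes, with 2 RNA-seq libraries on each side, 4 of the 8 libraries of a mouse series. The first group held FAP+ cells, that is cells carrying fibroblast activation protein on their surface, taken by flow cytometry from dissociated visceral adipose tissue. The second held mouse embryonic fibroblasts (MEFs) that had been sorted as FAP-negative, grown for 3 passages and sorted again. FAP+ cells of skeletal muscle and of pancreas, the latter labelled stellate cells, with 2 libraries each, entered the fit to estimate the spread and served as further reference. The labels give no strain, age, sex or treatment, and call the 2 libraries of a group biological replicates from duplicate experiments. Nothing says whether each came from 1 animal or several, so p-values measure only the spread between these libraries. FAP status, tissue against culture, and an embryonic source go together in this comparison and cannot be told apart.

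Fibroblast activation protein is a membrane-bound serine protease of the prolyl peptidase family, found on stromal cells of many tissues and on activated fibroblasts. In fat, stromal cells that carry Pdgfra hold the precursors of adipocytes, lie around vessels and between lobules, and secrete matrix, growth factors and binding proteins. Embryonic fibroblasts in culture divide on a stiff plastic surface in serum, spread out, and keep some marks of the limb and body wall from which they are usually prepared.

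Levels are estimated fragments in normalized CPM, that is counts scaled to library size, given in the order library 1 and library 2 of each group. CPM values do not take gene length into account, so they are compared between libraries for the same gene and not between genes. The adipose libraries held 25455781 and 27759399 fragments and the MEF libraries 25433575 and 25155326. The adipose libraries matched each other less well than those of any other group. Of genes at 50 CPM or more in either library, 37.5% differed by more than 2-fold between the adipose libraries, against 2.65% between the MEF libraries, 1.29% in muscle and 0.625% in pancreas. In whole reads recovered from the authors' RPKM table the adipose share was 19.7%. Ribosomal protein genes took 13.5% of the fragments in adipose library 1 and 4.15% in library 2, and 7.46% and 9.85% in the MEF libraries. Gsn, the actin-severing protein gelsolin, took 17.8% and 14.7% of adipose fragments against 0.291% and 0.308% in MEFs, but 2.93% and 3.81% of the adipose reads.

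For this reason 2 levels of evidence are kept apart. Calls come from edgeR's quasi-likelihood test over 14847 genes, at a threshold of 0.05 on the p-value adjusted by Benjamini and Hochberg. A called gene was counted as agreed if, in addition, all 4 differences between an adipose and a MEF library were at least 1 in log2(CPM + 1) in the direction of the call. "Higher" and "lower" below mean agreed, unless a sentence says otherwise. Log2 fold changes are adipose over MEF, with their standard error after the ± sign. Genes that go against their list, and others outside the rule for named genes, were chosen after their values were seen. Where a group held no fragment, the fold is a lower bound at a floor of 3 fragments per library, and where it held 1 to 3 fragments the ratio has a counting interval.

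A large share of all genes differed between the groups. The test called 7445 genes, 50.1% of those tested, 3994 (26.9%) higher and 3451 (23.2%) lower in adipose. In recovered reads the calls were 56.5% of 14359 genes, 29.3% higher and 27.3% lower. Agreement of all libraries left 3840 genes (25.9%), of which 2136 (14.4%) were higher and 1704 (11.5%) lower. These shares are the background for every list below. With a library left out, fewer differences have to pass, so agreed counts without adipose library 1 follow a looser rule. They are to be read beside the share of all genes under that setting. Of the 3840, 3207 (21.6% of the genes tested, 11.9% higher and 9.74% lower) were agreed in the recovered reads as well. Without adipose library 1 the agreed count was 4827 of 15351 genes (31.4%), with 17.5% higher and 14% lower. The split depends on the fit. With TMM-scaled fragment counts 53.6% of the calls were higher in adipose. With limma on the authors' FPKM values, to which no TMM scaling was applied, the share was 19.3% to 24.4%. The median over all genes in those fits lay as low as -0.93 on the log2 scale. TMM factors were 0.516 and 0.889 in the adipose libraries and 1.31 and 1.31 in the MEF libraries. Counts therefore describe changes relative to the bulk of genes, and TMM scaling sets where that bulk lies.

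**Figure D1:**
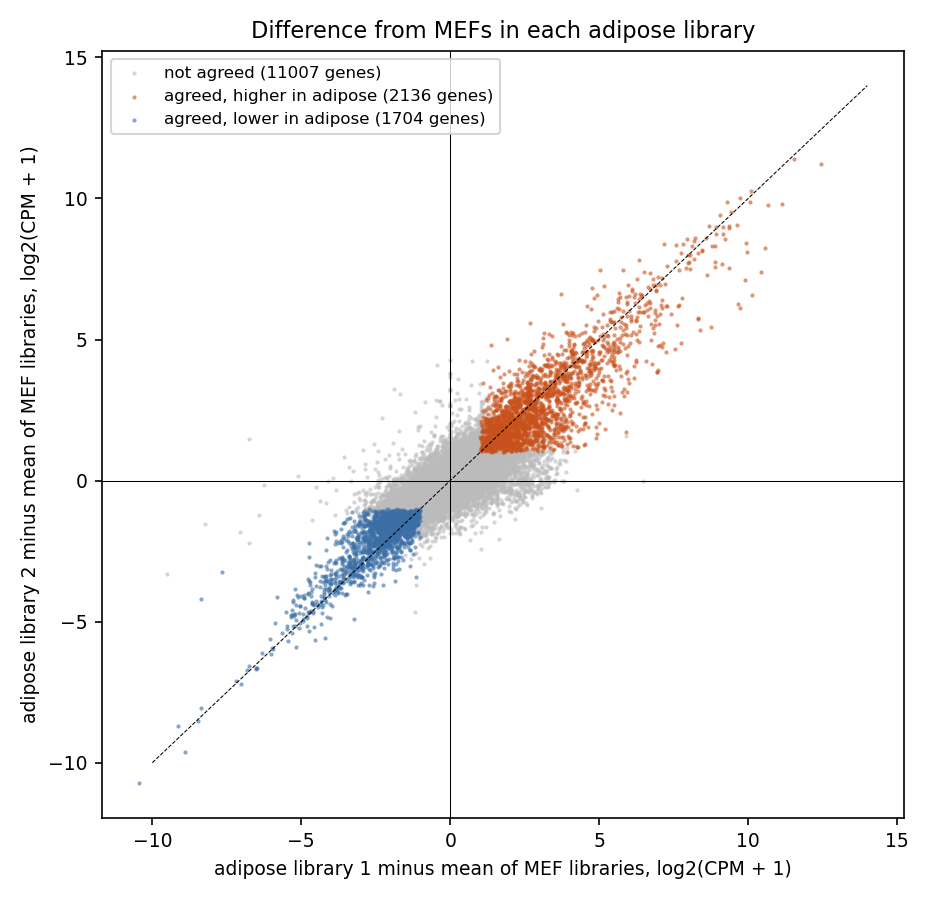
Each point is 1 of 14847 genes, placed by its level in adipose library 1 (horizontal) and adipose library 2 (vertical) minus the mean of the MEF libraries, in log2(CPM + 1). The 2136 agreed genes higher in adipose fill the upper right and the 1704 lower ones the lower left, and the grey points off the dashed line of equality are genes on which the adipose libraries differ.

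Fap, the gene of the sorted protein, stood at 28 and 34.4 CPM in the adipose libraries and 2.37 and 0.516 CPM in the MEF libraries (log2 fold change 4.43 ± 0.62, adjusted p = 0.00104). Both adipose libraries lay above both MEF libraries, in the direction of the sort labels, and muscle read 88.8 and 107 CPM and pancreas 55.4 and 65.6 CPM. The 10 stromal markers of the check list, among them Pdgfra, Thy1, Col1a1 and Dcn, were all above 1 CPM in both adipose libraries and summed to 60600 and 47200 CPM, against 11300 and 10600 in MEFs.

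RNA of other cell types was present beside the stromal signal and was unequal between the groups. Endothelial markers summed to 1090 and 934 CPM in adipose, 34.9 and 36.5 in MEFs, 125 and 242 in muscle and 78.2 and 80.8 in pancreas, and 12 of their 13 members were higher than in MEFs. Mature adipocyte markers summed to 122 and 94.2 CPM against 1.46 and 1.17, with 7 of 9 tested members higher. The adipocyte hormone Adiponectin (Adipoq) read 3.51 and 1.95 CPM in adipose and 0 and 0 in MEFs. Macrophage and myeloid markers summed to 81.8 and 38.6 CPM against 5.21 and 7.24, with 4 of 9 tested members higher. Pericyte and smooth muscle markers summed to 395 and 317 CPM against 205 and 226, with 7 members higher and 3 lower. Erythroid markers were the most uneven, at 1410 CPM in adipose library 1 and 135 in library 2, against 1.04 and 0.636. Lymphocyte markers summed to 4.04 and 0.642 CPM and none of the 13 passed the filter on low counts. Mesothelial markers were no higher in sum than in MEFs, at 46.2 and 36.6 CPM against 67.7 and 86.5. Schwann cell and glial markers summed to 18.2 and 13.6 CPM against 9.05 and 11.5, with 0 of 5 tested members higher, and the glial factor Foxd3 was at 0 in both adipose libraries. Muscle fibre markers summed to 99.4 and 41.8 CPM against 28.3 and 24.2, with 2 of 10 members higher and 1 lower. The part of these cells in the results below was not tested, and in bulk RNA more cells of a type and more RNA per cell cannot be told apart.

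The most abundant members of these lists in adipose give the scale. Car3, a carbonic anhydrase of adipocytes, read 65.8 and 72.3 CPM in the adipose libraries and 0.48 and 0.486 CPM in the MEF libraries (log2 fold change 7.14 ± 0.59, adjusted p = 0.000107). Cfd, the adipocyte protease adipsin, read 20.7 and 5.76 CPM in the adipose libraries and 0 and 0 CPM in the MEF libraries (at least 146-fold higher at the floor, adjusted p = 0.000507). Egfl7, a protein secreted by endothelium, read 276 and 121 CPM in the adipose libraries and 30.6 and 32.9 CPM in the MEF libraries (log2 fold change 2.64 ± 0.70, adjusted p = 0.0162), and it was not called without MEF library 1 or 2, at adjusted p = 0.102 and 0.0854. In each of these genes both adipose libraries lay above the MEF libraries.

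Fcer1g, an Fc receptor chain of myeloid cells, read 33.2 and 5.43 CPM against 0.06 and 0.182 CPM (log2 fold change 7.25 ± 1.11, adjusted p = 0.00153), and Cd14, a receptor for bacterial lipopolysaccharide, 18.3 and 19.4 CPM against 3.09 and 4.8 CPM (log2 fold change 2.26 ± 0.30, adjusted p = 0.00086). With limma on log2(FPKM + 1) Cd14 did not pass, at adjusted p = 0.0618. The beta globin Hbb-b2 read 134 and 15.1 CPM against 0.12 and 0.0303 CPM (log2 fold change 9.85 ± 1.47, adjusted p = 0.00139). Actn3, a muscle actinin, read 25.5 and 22.6 CPM against 1.56 and 1.15 CPM (log2 fold change 4.14 ± 0.32, adjusted p = 8.12e-05) and Tnnt3, a troponin, 64 and 17.2 CPM against 7.41 and 2.98 CPM (log2 fold change 2.96 ± 0.67, adjusted p = 0.00851). In the FAP+ cells of muscle Actn3 read only 1.53 and 1.59 CPM, and in those of pancreas 20.85 and 15.59 CPM. Tnnt3 read 32.1 and 45.1 CPM in muscle and 43.3 and 41.3 CPM in pancreas. Without MEF library 2 Tnnt3 was not called, at adjusted p = 0.0594. Mesothelial Cldn15 read 28.3 and 30.3 CPM against 0.99 and 0.85 CPM (log2 fold change 4.99 ± 0.49, adjusted p = 0.000219), while the keratin Krt8 with 5.64 and 1.42 CPM against 1.08 and 0.729 CPM and the glial Mbp and Ngfr with 5.72 and 9.17 CPM against 3.66 and 6.34 CPM and 6.17 and 1.66 CPM against 1.29 and 0.82 CPM were not called.

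**Figure D2:**
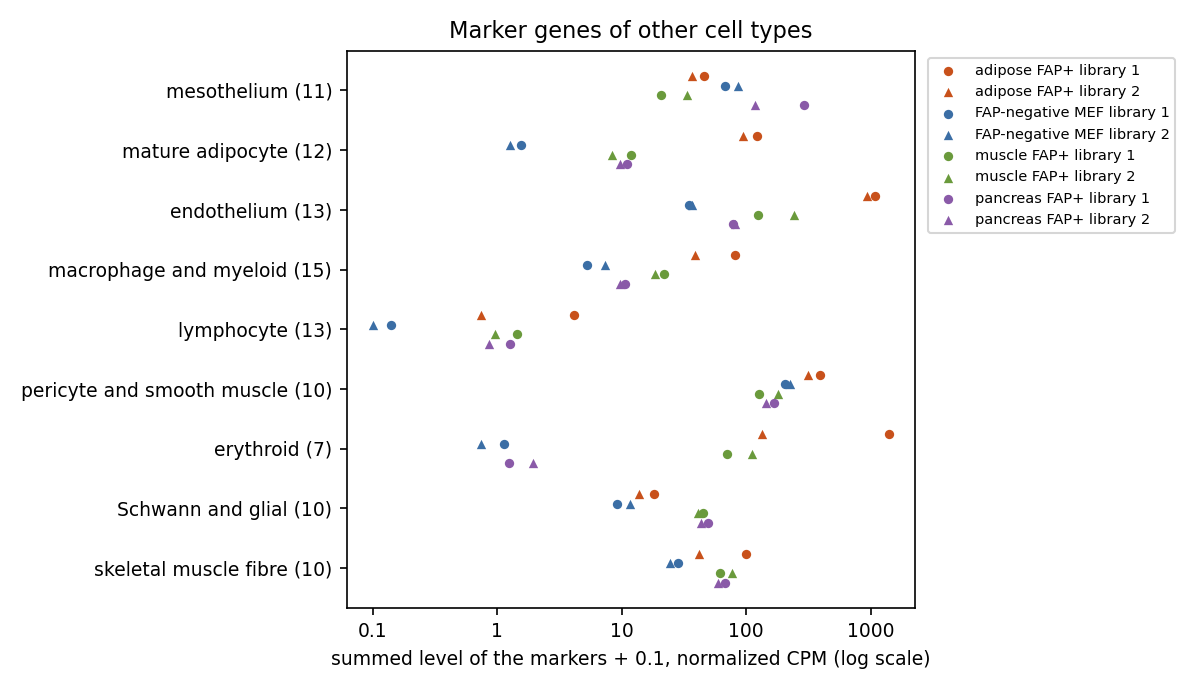
Summed normalized CPM of marker genes (log scale, 0.1 added) for 9 other cell types, with the number of genes in brackets and 1 point per library. Endothelial markers stood at 1090 and 934 CPM in the adipose libraries and at most 242 CPM in all others, and erythroid markers at 1410 CPM in adipose library 1 only.

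Outside the complement, cytokine and matrix lists, the 12 higher genes with the widest gap between the groups included metabolic enzymes, carriers and receptors. Inmt, indolethylamine N-methyltransferase, stood at 2437 and 965 CPM in the adipose libraries and 0.09 and 0.0607 CPM in the MEF libraries (log2 fold change 14.36 ± 0.81, adjusted p = 3.39e-05). Sult1e1, the sulfotransferase that inactivates estrogens, was found at 486 and 505 CPM in the adipose libraries and 0 and 0 CPM in the MEF libraries (at least 5470-fold higher at the floor, adjusted p = 5.81e-05). Hsd11b1, which regenerates active glucocorticoid from its inert keto form, reached 745 and 477 CPM in the adipose libraries and 0.27 and 0.243 CPM in the MEF libraries (log2 fold change 11.19 ± 0.51, adjusted p = 3.14e-05). None of these enzymes reached 1 CPM in a MEF library.

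Iron handling and the breakdown of extracellular lipid and nucleotides were represented too. Trf, the serum iron carrier transferrin, read 1258 and 1347 CPM in the adipose libraries and 0.93 and 0.729 CPM in the MEF libraries (log2 fold change 10.61 ± 0.48, adjusted p = 3.14e-05). Scara5, a scavenger receptor that binds ferritin, read 2560 and 2047 CPM in the adipose libraries and 5.28 and 1.43 CPM in the MEF libraries (log2 fold change 9.42 ± 0.78, adjusted p = 0.000105). Entpd2, an ectoenzyme that splits extracellular ATP, read 688 and 615 CPM in the adipose libraries and 0.36 and 0.0911 CPM in the MEF libraries (log2 fold change 11.46 ± 0.68, adjusted p = 3.66e-05). In fragments these 3 genes differed little between the adipose libraries. In recovered reads Trf read 1137 and 2016 CPM in them, Entpd2 334 and 660 CPM and Scara5 1707 and 1807 CPM. Pla1a, a secreted phospholipase specific for phosphatidylserine, read 699 and 627 CPM in the adipose libraries and 0.6 and 0.334 CPM in the MEF libraries (log2 fold change 10.45 ± 0.48, adjusted p = 3.14e-05). Gpr133, an adhesion G-protein-coupled receptor, read 613 and 409 CPM in the adipose libraries and 0.3 and 0.273 CPM in the MEF libraries (log2 fold change 10.77 ± 0.48, adjusted p = 3.14e-05). Cilp, a secreted matrix protein first known from cartilage, read 1040 and 717 CPM in the adipose libraries and 0.36 and 0.303 CPM in the MEF libraries (log2 fold change 11.35 ± 0.52, adjusted p = 3.14e-05), and Pi16, a secreted peptidase inhibitor family member that marks fibroblasts of many tissues, read 745 and 1120 CPM in the adipose libraries and 0.15 and 0.243 CPM in the MEF libraries (log2 fold change 12.17 ± 0.60, adjusted p = 3.19e-05). For Cilp and Pi16 the gap between the adipose libraries was small beside the gap to MEFs.

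**Figure D3:**
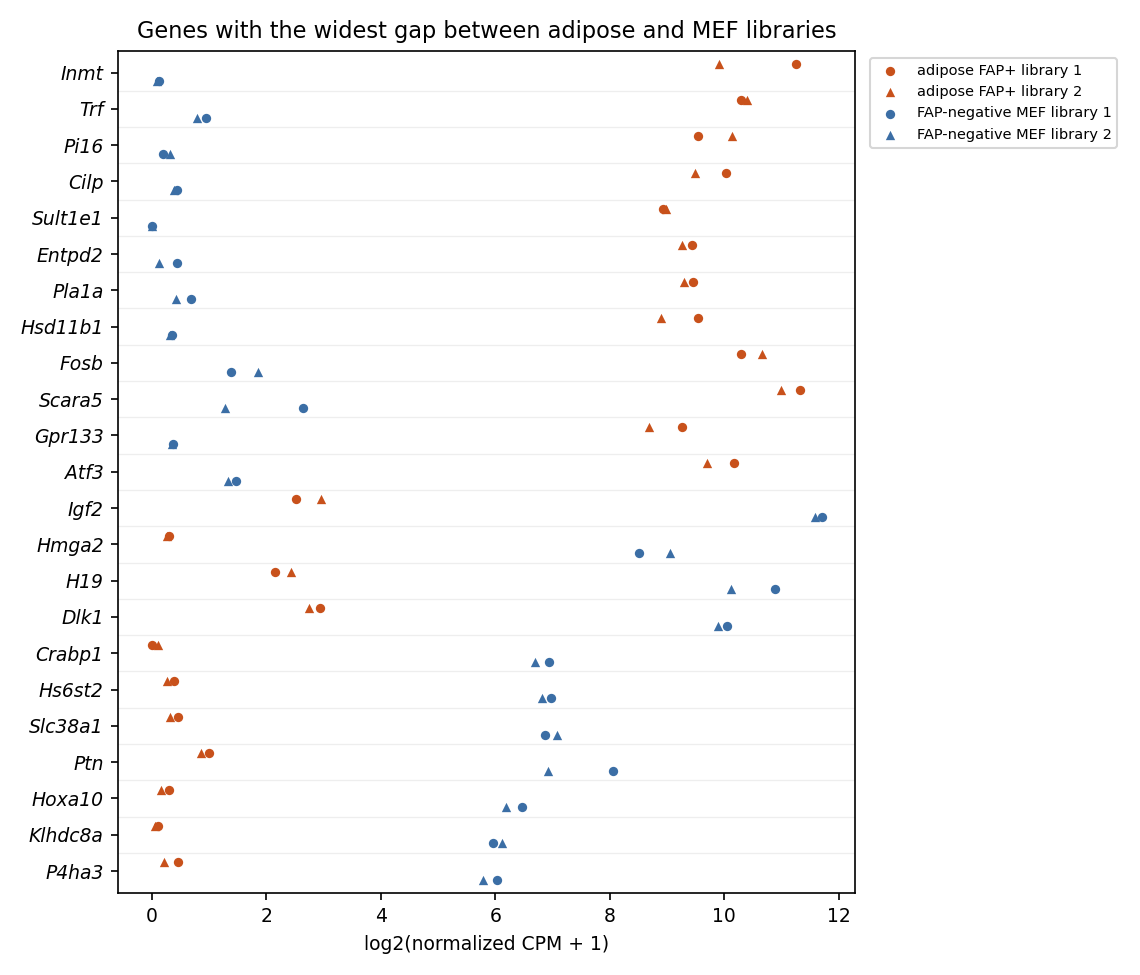
Levels in log2(normalized CPM + 1) of 12 genes highest and 11 genes lowest in adipose by the smallest of the 4 differences between libraries, with 1 point per library. The adipose and MEF points do not overlap for any gene, which the selection by gap ensures. In the upper 12 the highest MEF point is Scara5 in library 1, at 5.28 CPM.

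Enzymes that convert steroids, alcohols and foreign compounds were higher as a group. Of 48 members tested, 32 were higher and 1, the monoamine oxidase Maoa at 3.73 and 6.37 CPM against 19.3 and 15.8 CPM, was lower. The median log2 fold change of the list was 4.44, against 0.0491 over all genes tested. Adh1, an alcohol dehydrogenase that also oxidises retinol, read 820 and 299 CPM in the adipose libraries and 0.57 and 0.364 CPM in the MEF libraries (log2 fold change 10.21 ± 0.69, adjusted p = 5.03e-05). It was joined by Inmt, Sult1e1 and Hsd11b1 described above, so both sulfation and reduction of steroids were represented. In recovered reads 31 of the 32 were agreed.

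Genes that respond to glucocorticoids, the adrenal steroid hormones, were higher in 16 of 19 tested, with a median log2 fold change of 4.79. Gpx3, a secreted glutathione peroxidase, read 4591 and 2089 CPM in the adipose libraries and 11.3 and 6.65 CPM in the MEF libraries (log2 fold change 8.54 ± 0.62, adjusted p = 6.72e-05). Sult1a1, a phenol sulfotransferase, read 167 and 77.4 CPM in the adipose libraries and 0.06 and 0.0911 CPM in the MEF libraries (log2 fold change 10.56 ± 0.60, adjusted p = 3.4e-05). The metallothioneins, small metal-binding proteins, were far apart between the adipose libraries: Mt1 stood at 25230 and 2036 CPM in the adipose libraries and 23.5 and 35 CPM in the MEF libraries (log2 fold change 8.87 ± 1.27, adjusted p = 0.00115), and Mt2 at 15910 and 2257 CPM in the adipose libraries and 14.2 and 17 CPM in the MEF libraries (log2 fold change 9.18 ± 1.06, adjusted p = 0.000458). Both adipose libraries lay well above MEFs for each, but library 1 held several times the level of library 2. Ddit4, an inhibitor of the growth kinase mTORC1, was the lower member at 11.1 and 26.4 CPM against 54.3 and 58.3 CPM.

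Immediate-early genes, which are transcribed within minutes of a stimulus, were higher in 18 of 22 members tested and lower in 0, with a median log2 fold change of 4.29. Without adipose library 1 all 22 were higher. Fosb, an AP-1 subunit, read 1261 and 1611 CPM in the adipose libraries and 1.62 and 2.61 CPM in the MEF libraries (log2 fold change 9.40 ± 0.59, adjusted p = 4.18e-05). Fos, its relative, read 2946 and 1965 CPM in the adipose libraries and 27.6 and 26.4 CPM in the MEF libraries (log2 fold change 6.51 ± 0.45, adjusted p = 5.43e-05). Atf3, a stress-induced repressor, read 1154 and 832 CPM in the adipose libraries and 1.77 and 1.52 CPM in the MEF libraries (log2 fold change 9.23 ± 0.50, adjusted p = 3.27e-05). Socs3, the feedback inhibitor of cytokine receptors, read 2803 and 1936 CPM in the adipose libraries and 34.7 and 25.8 CPM in the MEF libraries (log2 fold change 6.29 ± 0.46, adjusted p = 6.72e-05). All 4 showed the same order, both adipose libraries above both MEF libraries. The adipose cells were dissociated and sorted directly from tissue and the MEFs from culture, and the part of handling was not tested. In muscle and pancreas Fos read 4644 and 6169 CPM and 5420 and 5548 CPM, and neither difference from adipose was called (adjusted p = 0.11 and 0.0895).

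Among 26 factors with roles in adipogenesis, 12 were higher and 1 lower, with a median log2 fold change of 1.75. The factors that led were Klf4 at 3576 and 2844 CPM against 38.1 and 50.5 CPM (log2 fold change 6.18 ± 0.39, adjusted p = 4.35e-05) and Klf2 at 1272 and 1004 CPM against 19.1 and 16.6 CPM (log2 fold change 5.99 ± 0.36, adjusted p = 3.66e-05), both Kruppel-like factors that endothelial cells express as well. Nr1h3, the oxysterol receptor LXR-alpha, read 190 and 104 CPM in the adipose libraries and 1.41 and 1.27 CPM in the MEF libraries (log2 fold change 6.77 ± 0.46, adjusted p = 5.23e-05). Cebpd, an early driver of the adipogenic cascade, read 683 and 916 CPM in the adipose libraries and 30.7 and 24.9 CPM in the MEF libraries (log2 fold change 4.85 ± 0.36, adjusted p = 7.52e-05). Klf4, Klf2, Nr1h3 and Cebpd were not called different from muscle (edgeR, adjusted p = 0.207, 0.67, 0.0987 and 0.321). Against pancreas only Klf4 and Klf2 of them were called, both higher in adipose (adjusted p = 0.0467 and 0.0299). No agreed member of the list differed from both tissues in the direction seen against MEFs. The late driver Pparg, singled out after its values were seen, was called but not agreed, at 43.2 and 37 CPM against 14.8 and 20.4 CPM (log2 fold change 1.19 ± 0.31, adjusted p = 0.0145). Cebpa, likewise singled out, differed between the adipose libraries, at 7.17 and 31 CPM against 7.53 and 6.16 CPM. Gata3, which restrains adipogenesis, was the lower member, at 0.0762 and 0.122 CPM against 2.25 and 4.01 CPM.

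Of 25 genes for lipid uptake, storage and release, 10 were higher and 0 lower, with a median of 0.481. Cd36, a fatty acid transporter, read 150 and 348 CPM in the adipose libraries and 0.09 and 0 CPM in the MEF libraries (a ratio of 5500 in favour of adipose with a 95% counting interval of 1880 to 26700, adjusted p = 0.000199). Lpl, lipoprotein lipase, read 342 and 544 CPM in the adipose libraries and 1.62 and 3.13 CPM in the MEF libraries (log2 fold change 7.54 ± 0.58, adjusted p = 8.22e-05). Mgll, monoglyceride lipase, read 261 and 388 CPM in the adipose libraries and 11.6 and 16.8 CPM in the MEF libraries (log2 fold change 4.51 ± 0.40, adjusted p = 0.000137). Fabp4, a fatty acid binding protein of adipocytes and capillary endothelium, read 6445 and 782 CPM in the adipose libraries and 2.46 and 5.43 CPM in the MEF libraries (log2 fold change 9.84 ± 1.33, adjusted p = 0.000904). Cd36 and Fabp4 are also made by endothelium, whose markers moved the same way. The synthesis genes Fasn, Acaca and Acly, singled out after their values were seen, had log2 fold changes of 0.01, -0.05 and -0.11, none of them called. In recovered reads 7 of the 10 were agreed, and Plin1 could not be tested. With limma on log2(FPKM + 1) the calls of this list were 8 higher and 7 lower, in place of 11 and 1.

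Sterol and lipid export genes were higher in 14 of 20 members and lower in 1, with a median of 3.51. Apoe, apolipoprotein E, read 1084 and 876 CPM in the adipose libraries and 2.19 and 2.06 CPM in the MEF libraries (log2 fold change 8.84 ± 0.67, adjusted p = 7.96e-05). The ABC lipid transporters Abca8a and Abca6 read 243 and 356 CPM against 0.09 and 0.0607 CPM (log2 fold change 11.86 ± 0.59, adjusted p = 3.19e-05) and 56 and 76.3 CPM against 0.03 and 0.243 CPM (log2 fold change 8.87 ± 0.67, adjusted p = 7.78e-05). Apod, apolipoprotein D, read 56.2 and 90.3 CPM against 0.3 and 0 CPM (log2 fold change 8.88 ± 0.91, adjusted p = 0.000264). Both adipose libraries lay well above both MEF libraries in each of these. Apol6 was the lower member, at 1.75 and 1.78 CPM against 5.85 and 4.67 CPM.

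Markers of adipose progenitors were higher in 16 of 28 and lower in 3, with a median of 2.16. Pi16, described above, was not particular to adipose, with 4278 and 2920 CPM in muscle and 1958 and 1919 CPM in pancreas. In edgeR's quasi-likelihood test it was lower in adipose than in muscle (log2 difference -1.95, adjusted p = 0.0285). The difference from pancreas was not called (adjusted p = 0.124). Besides Pi16, Icam1, an adhesion molecule of committed preadipocytes, read 350 and 380 CPM in the adipose libraries and 5.22 and 2.73 CPM in the MEF libraries (log2 fold change 6.52 ± 0.42, adjusted p = 4.52e-05). Fmo2, a flavin monooxygenase, read 32.2 and 176 CPM in the adipose libraries and 0 and 0.0303 CPM in the MEF libraries (a ratio of 6920 in favour of adipose with a 95% counting interval of 1240 to 273000, adjusted p = 0.000277). The preadipocyte factor Dlk1 went the other way, at 6.63 and 5.72 CPM in the adipose libraries and 1064 and 945 CPM in the MEF libraries (log2 fold change -7.35 ± 0.62, adjusted p = 0.000111). Its adipose levels were also below those of muscle (21 and 61.8 CPM) and pancreas (129 and 152 CPM). Cd24a and Cd44, 2 surface glycoproteins, were the other lower members, at 2.21 and 2.84 CPM against 122 and 111 CPM and 264 and 393 CPM against 1245 and 1592 CPM.

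Hormone receptors and their partners were higher in 10 of 32 members and lower in 1, with a median of 0.681. Ramp2 and Ramp1, accessory proteins that set the ligand of the calcitonin-like receptor, read 233 and 84.2 CPM against 1.08 and 0.607 CPM (log2 fold change 7.54 ± 0.64, adjusted p = 0.000112) and 85.2 and 48 CPM against 1.74 and 2.55 CPM (log2 fold change 4.95 ± 0.39, adjusted p = 8.61e-05). Npr1, the receptor of atrial natriuretic peptide, read 145 and 29.4 CPM in the adipose libraries and 0.03 and 0.0303 CPM in the MEF libraries (a ratio of 2890 in favour of adipose with a 95% counting interval of 799 to 23800, adjusted p = 0.00019). The partner protein Ramp3 was lower, at 1.37 and 0.892 CPM against 6.72 and 8.96 CPM (log2 fold change -2.81 ± 0.83, adjusted p = 0.025). Ramp2 and Npr1 are also expressed by endothelium, whose markers were higher in adipose, and its part in their levels was not tested. With limma on log2(FPKM + 1) the list's calls were 6 higher and 6 lower, in place of 15 and 2.

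Lysosomal and fatty acid oxidation genes differed in fewer cases. Of 35 lysosome and autophagy genes 10 were higher and 0 lower, with a median of 1.08, and 6 of the 10 were agreed in recovered reads. The direction of the calls depended on the fit. With TMM-scaled fragment counts 20 were higher and 1 lower. With limma on log2(FPKM + 1), without TMM scaling, 2 were higher and 3 lower. The proteases Ctsf and Ctsh led, at 128 and 113 CPM against 10.9 and 9.56 CPM (log2 fold change 3.55 ± 0.26, adjusted p = 6.43e-05) and 318 and 281 CPM against 30.3 and 30.8 CPM (log2 fold change 3.30 ± 0.26, adjusted p = 8.42e-05). Psap, the precursor of sphingolipid activators, read 8189 and 7264 CPM against 1774 and 1764 CPM (log2 fold change 2.13 ± 0.35, adjusted p = 0.0022) and the autophagy receptor Sqstm1 read 400 and 405 CPM against 129 and 109 CPM (log2 fold change 1.76 ± 0.27, adjusted p = 0.00167). With limma on log2(FPKM + 1) neither Psap nor Sqstm1 passed, at adjusted p = 0.0682 and 0.252. Of 28 fatty acid oxidation genes 4 were higher and 0 lower, a share near the background, with a median of 0.0527, and the calls turned from 10 higher and 2 lower to 2 higher and 8 lower with limma on log2(FPKM + 1). These were Ppara, the receptor that switches on oxidation, at 6.4 and 9.98 CPM against 0.33 and 0.577 CPM (log2 fold change 4.17 ± 0.41, adjusted p = 0.00023), the uncoupling protein Ucp2 at 27.5 and 14 CPM against 3.06 and 2.46 CPM (log2 fold change 2.90 ± 0.39, adjusted p = 0.000896), the thiolase Acaa2 at 296 and 142 CPM against 43.9 and 41.1 CPM (log2 fold change 2.37 ± 0.38, adjusted p = 0.00186) and the carnitine transferase Cpt1a at 84.6 and 70.3 CPM against 21.9 and 24.8 CPM (log2 fold change 1.73 ± 0.24, adjusted p = 0.00101). For Cpt1a the limma fit on FPKM gave adjusted p = 0.176, and for Ppara 0.0554.

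Cell division genes were lower in adipose with hardly an exception. Of 37 genes of the mitotic spindle and chromosome segregation 36 were lower and 0 higher, with a median log2 fold change of -4.32. The remaining one, the kinetochore gene Spc24, was called but not agreed, at 14.5 and 8.36 CPM against 26.3 and 35.2 CPM (log2 fold change -1.44 ± 0.32, adjusted p = 0.00851). Aurka, a mitotic kinase, read 1.14 and 2.07 CPM in the adipose libraries and 78.7 and 80.8 CPM in the MEF libraries (log2 fold change -5.59 ± 0.52, adjusted p = 0.00018). Ccnb1, the cyclin that drives entry into mitosis, read 1.75 and 3 CPM in the adipose libraries and 113 and 102 CPM in the MEF libraries (log2 fold change -5.47 ± 0.86, adjusted p = 0.00174). Kif2c, a kinesin that takes microtubules apart, and Plk1, another mitotic kinase, read 0.534 and 1.54 CPM against 64.2 and 56.1 CPM (log2 fold change -5.77 ± 0.57, adjusted p = 0.000232) and 3.43 and 4.46 CPM against 110 and 111 CPM (log2 fold change -4.79 ± 0.31, adjusted p = 4.52e-05). In each of these the MEF libraries lay close together and far above the adipose ones.

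DNA replication and repair genes were lower in 37 of 44 members and higher in 0, with a median of -2.53. Mcm5 and Mcm2, subunits of the replicative helicase, read 3.13 and 6.17 CPM against 83.1 and 85.1 CPM (log2 fold change -4.16 ± 0.37, adjusted p = 0.000144) and 8.77 and 7.79 CPM against 92.7 and 94.7 CPM (log2 fold change -3.50 ± 0.28, adjusted p = 8.85e-05). Uhrf1, which guides maintenance of DNA methylation, read 15 and 24.3 CPM against 272 and 300 CPM (log2 fold change -3.86 ± 0.34, adjusted p = 0.000143). The replication clamp Pcna, singled out after its values were seen, was called but not agreed, at 65.1 and 78.2 CPM against 123 and 138 CPM (log2 fold change -0.86 ± 0.26, adjusted p = 0.0272).

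The promoters of these 2 lists hold matches to known cell-cycle elements, shown here for the members with the largest fall whose promoter held the motifs. For the mitotic genes the motifs are CCAAT, the box bound by NF-Y, and TTTGAA, a core of the cell-cycle genes homology region. Exact matches were sought on both strands in RefSeq promoters of GRCm38.p6, from 250 bases before to 50 after a start, for 30 of the 37 mitotic genes with 32 promoters. CCAAT was found in 78.1% of them, against 37.3% of the 14557 promoters of all tested genes and 37.4% of the whole table. TTTGAA was also found in 78.1%, against 12.1% and 17.9%. Of the 36 lower genes 30 had a promoter in the table, and 20 of these had a promoter with both motifs, against 6.0% of 11355 tested genes with a promoter. Capitals mark CCAAT and TTTGAA, or their reverse complements.
Aurka, chr2:172370521-172370820, minus strand: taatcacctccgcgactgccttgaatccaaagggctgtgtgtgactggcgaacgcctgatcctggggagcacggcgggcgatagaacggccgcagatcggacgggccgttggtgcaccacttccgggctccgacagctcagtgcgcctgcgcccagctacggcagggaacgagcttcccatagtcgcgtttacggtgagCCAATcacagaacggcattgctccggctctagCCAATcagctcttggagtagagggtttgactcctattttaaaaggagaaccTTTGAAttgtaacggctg
Ect2, chr3:27153805-27154104, minus strand: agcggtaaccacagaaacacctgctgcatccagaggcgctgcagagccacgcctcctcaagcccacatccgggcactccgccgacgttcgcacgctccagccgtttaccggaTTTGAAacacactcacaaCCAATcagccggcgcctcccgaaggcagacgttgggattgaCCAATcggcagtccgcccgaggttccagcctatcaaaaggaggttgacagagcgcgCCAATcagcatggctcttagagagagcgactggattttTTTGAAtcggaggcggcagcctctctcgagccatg
Cenpa, chr5:30666636-30666935, plus strand: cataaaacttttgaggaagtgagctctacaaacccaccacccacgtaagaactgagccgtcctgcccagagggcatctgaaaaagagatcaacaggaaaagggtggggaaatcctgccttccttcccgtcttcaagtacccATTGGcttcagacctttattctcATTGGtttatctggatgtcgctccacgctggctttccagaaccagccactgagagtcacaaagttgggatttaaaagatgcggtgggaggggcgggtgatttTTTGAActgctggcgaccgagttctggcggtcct
Ect2, an exchange factor for cytokinesis, read 1.68 and 4.54 CPM against 136 and 79.6 CPM (log2 fold change -5.08 ± 0.72, adjusted p = 0.00107) and Cenpa, the centromeric histone, read 0.991 and 2.72 CPM against 61.2 and 64.5 CPM (log2 fold change -5.03 ± 0.57, adjusted p = 0.000416).

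For DNA replication genes TTGGCGC, an E2F-type element, was found in 29.3% of 41 promoters of 33 genes, against 4.1% of the promoters of all tested genes and 2.5% of the whole table. CCAAT was found in 63.4% and TTTGAA in 14.6%. The reverse complement of TTGGCGC can overlap CCAAT, as it does in Mcm7. Of the 37 lower genes 28 had a promoter in the table, and 7 of these had a promoter with TTGGCGC and CCAAT, against 2.5% of tested genes with a promoter. Capitals mark both, or their reverse complements, in the 2 with the largest fall.
Mcm5, chr8:75109259-75109558, plus strand: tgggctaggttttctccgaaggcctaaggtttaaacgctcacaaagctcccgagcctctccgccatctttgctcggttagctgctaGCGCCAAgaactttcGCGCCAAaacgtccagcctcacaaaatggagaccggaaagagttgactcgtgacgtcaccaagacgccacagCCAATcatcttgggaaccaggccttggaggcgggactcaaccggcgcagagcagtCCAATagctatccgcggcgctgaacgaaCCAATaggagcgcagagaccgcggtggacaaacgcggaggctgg
Mcm7, chr5:138171834-138172133, minus strand: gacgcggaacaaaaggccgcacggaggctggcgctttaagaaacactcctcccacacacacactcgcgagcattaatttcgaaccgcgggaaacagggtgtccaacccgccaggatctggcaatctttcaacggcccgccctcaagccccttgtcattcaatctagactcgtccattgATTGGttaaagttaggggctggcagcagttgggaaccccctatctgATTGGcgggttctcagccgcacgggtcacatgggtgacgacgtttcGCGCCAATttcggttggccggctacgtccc
Mcm7, another helicase subunit, read 8.61 and 10.9 CPM against 124 and 111 CPM (log2 fold change -3.58 ± 0.28, adjusted p = 8.32e-05). A match of letters is a description and not evidence of binding. In immediate-early promoters TGACGTCA, the cyclic AMP response element, was found in 9.1% of 22, TATAAA in 13.6% and GGGCGG in 77.3%, against 2.9%, 7.7% and 60.0% of the promoters of all tested genes. In 28 promoters of the amino acid supply list CACGTG was found in 7.1%, against 9.4%.

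Supply routes for dividing cells were lower as well. Of 28 nucleotide synthesis genes 18 were lower and 0 higher, with a median of -1.57. Rrm2 and Rrm1, the subunits of ribonucleotide reductase, read 2.44 and 5.19 CPM against 204 and 204 CPM (log2 fold change -5.72 ± 0.57, adjusted p = 0.000234) and 13.8 and 18.7 CPM against 184 and 141 CPM (log2 fold change -3.32 ± 0.31, adjusted p = 0.000184). Tk1, thymidine kinase, and Shmt1, a source of one-carbon units, read 11.7 and 9.77 CPM against 119 and 139 CPM (log2 fold change -3.58 ± 0.37, adjusted p = 0.000262) and 1.07 and 0.527 CPM against 10.8 and 9.74 CPM (log2 fold change -3.73 ± 0.44, adjusted p = 0.000483).

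Of 30 genes for serine, one-carbon and amino acid supply, many of them targets of the stress factor Atf4, 15 were lower and 2 higher, with a median of -1.47. Slc38a1, a glutamine transporter, read 0.381 and 0.243 CPM in the adipose libraries and 116 and 135 CPM in the MEF libraries (log2 fold change -8.70 ± 0.46, adjusted p = 3.27e-05). Aldh1l2, a mitochondrial folate enzyme, read 0.991 and 0.568 CPM against 40 and 25.2 CPM (log2 fold change -5.43 ± 0.58, adjusted p = 0.000305), and Chac1, a glutathione-degrading enzyme, read 0.915 and 0.568 CPM against 19 and 17.3 CPM (log2 fold change -4.64 ± 0.66, adjusted p = 0.00107). Slc1a5, another glutamine transporter, was one of the 2 higher members, at 632 and 486 CPM in the adipose libraries and 44.3 and 32.7 CPM in the MEF libraries (log2 fold change 3.86 ± 0.33, adjusted p = 0.000124). The other was Atf4 itself, at 959 and 785 CPM against 300 and 238 CPM (log2 fold change 1.70 ± 0.29, adjusted p = 0.00256), though it was not agreed in recovered reads. So of the glutamine carriers Slc38a1 was lower and Slc1a5 higher.

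Ribosome biogenesis genes were lower in 9 of 31 and higher in 1, with a median of -0.838, and the agreed count was 17 without adipose library 1. The higher member was Myc, the growth regulator known to drive that programme, at 2501 and 1661 CPM in the adipose libraries and 168 and 161 CPM in the MEF libraries (log2 fold change 3.66 ± 0.35, adjusted p = 0.000204). Npm1, Polr1e and Wdr12, which act in the nucleolus, were lower, at 165 and 175 CPM against 686 and 712 CPM, 3.81 and 3.49 CPM against 15.7 and 15.6 CPM and 13.5 and 19.4 CPM against 68.5 and 69 CPM. Of 20 translation factors 2 were lower, a share near the background, Eif2s1 at 7.55 and 16.8 CPM against 76 and 70 CPM (log2 fold change -2.58 ± 0.38, adjusted p = 0.00135) and Eif3b at 76.4 and 120 CPM against 308 and 250 CPM (log2 fold change -1.51 ± 0.31, adjusted p = 0.00584), and 5 without adipose library 1. Fitted on adipose and MEF libraries alone, Eif3b did not pass, at adjusted p = 0.0544. By calls alone the translation list had 9 members lower and 1 higher, with a median of -0.891. Of 26 genes of the tricarboxylic acid cycle and its supply 3 were lower, again a share near the background, the malic enzyme Me1 at 25.5 and 42.8 CPM against 175 and 128 CPM, the dehydrogenase subunit Idh3a at 5.49 and 19 CPM against 62.5 and 54.4 CPM and citrate synthase Cs at 28.4 and 55.2 CPM against 155 and 140 CPM, and 5 without adipose library 1. By calls alone 11 of the 26 were lower and 1 higher, with a median of -0.68. Over all genes tested 23.2% were called lower and the median was 0.0491. Both lists thus lay lower than the bulk of genes, mostly by differences short of the agreement rule.

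Embryonic growth and chromatin regulators were lower in 15 of 28 and higher in 1, Myc, with a median of -1.77. Hmga2, an architectural chromatin protein of embryonic and growing cells, read 0.229 and 0.203 CPM in the adipose libraries and 362 and 530 CPM in the MEF libraries (log2 fold change -11.00 ± 0.53, adjusted p = 3.19e-05). Igf2bp1 and Igf2bp3, RNA-binding proteins of the fetal growth programme, read 0.0762 and 0.0406 CPM against 18.6 and 54 CPM (a ratio of 686 in favour of MEFs with a 95% counting interval of 190 to 5660, adjusted p = 0.000325) and 0.305 and 0.487 CPM against 38.6 and 39.2 CPM (log2 fold change -6.54 ± 0.45, adjusted p = 5.44e-05). Hmga1, a relative of Hmga2, read 0 and 16.9 CPM against 210 and 516 CPM (log2 fold change -5.39 ± 1.74, adjusted p = 0.0343), with no fragment in adipose library 1. It was not called without MEF library 1 or 2, at adjusted p = 0.0747 and 0.111.

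Imprinted genes, expressed from 1 parental copy in at least some tissues, were lower in 7 of 26 and higher in 2, with a median of -1.02. Which copy was expressed in these cells was not measured. Igf2, a fetal growth factor, read 4.73 and 6.73 CPM in the adipose libraries and 3339 and 3056 CPM in the MEF libraries (log2 fold change -9.12 ± 0.49, adjusted p = 3.27e-05), and its neighbour H19, a noncoding RNA, read 3.43 and 4.42 CPM in the adipose libraries and 1896 and 1106 CPM in the MEF libraries (log2 fold change -8.57 ± 0.48, adjusted p = 3.39e-05). Dlk1 was described above. Dcn, the matrix proteoglycan decorin, and Sgce, a sarcoglycan, were the higher members, at 17280 and 21790 CPM against 42.6 and 22.7 CPM and 580 and 640 CPM against 167 and 136 CPM. Igf2, H19 and Dlk1 were lower in adipose than in muscle and pancreas as well.

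Among the other genes with the widest gap in the lower direction were a retinoid binding protein, a growth factor and enzymes that modify heparan sulfate and collagen. Crabp1, cellular retinoic acid binding protein, read 0 and 0.0811 CPM in the adipose libraries and 122 and 103 CPM in the MEF libraries (a ratio of 2120 in favour of MEFs with a 95% counting interval of 586 to 17500, adjusted p = 4.65e-05). Ptn, the heparin-binding growth factor pleiotrophin, read 0.991 and 0.811 CPM against 266 and 120 CPM (log2 fold change -7.75 ± 0.59, adjusted p = 8.12e-05). Hs6st2, a heparan sulfate sulfotransferase, and P4ha3, a collagen prolyl hydroxylase subunit, read 0.305 and 0.203 CPM against 125 and 112 CPM (log2 fold change -8.90 ± 0.42, adjusted p = 3.19e-05) and 0.381 and 0.162 CPM against 64.1 and 53.9 CPM (log2 fold change -7.87 ± 0.48, adjusted p = 3.9e-05). Klhdc8a, a kelch-domain protein, read 0.0762 and 0.0406 CPM against 61.2 and 68.9 CPM (a ratio of 1230 in favour of MEFs with a 95% counting interval of 340 to 10100, adjusted p = 3.27e-05). Every one of these was below 4 CPM in both adipose libraries.

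Of 37 transcription factors that mark position in the mesoderm 6 were higher and 12 lower, with a median of -0.989. The higher ones included Tcf21 and Wt1, factors of visceral mesoderm and of the lining of the body cavity. Tcf21 read 846 and 335 CPM in the adipose libraries and 0.69 and 0.88 CPM in the MEF libraries (log2 fold change 9.54 ± 0.75, adjusted p = 8.85e-05) and Wt1 read 64.3 and 92.6 CPM in the adipose libraries and 0.48 and 0.212 CPM in the MEF libraries (log2 fold change 7.80 ± 0.48, adjusted p = 4.17e-05). Among the lower ones, Tbx15, of the limb and body wall, read 0.152 and 0.0811 CPM against 53 and 37.6 CPM (log2 fold change -8.65 ± 0.43, adjusted p = 3.19e-05) and Pitx1, of the hindlimb, read 0.457 and 0.122 CPM against 25.8 and 29.8 CPM (log2 fold change -6.75 ± 0.74, adjusted p = 0.000352). The sides did not follow the region throughout: Hand2, also found in visceral mesoderm, was lower at 0.152 and 0.0811 CPM against 4.26 and 5.71 CPM, and Msx1, also found in the limb, was higher at 23 and 11.5 CPM against 3 and 2.76 CPM. Hoxa10, a posterior Hox gene outside the list, read 0.229 and 0.122 CPM against 87.6 and 71.8 CPM (log2 fold change -8.89 ± 0.40, adjusted p = 3.14e-05). In muscle Tbx15 had a mean of 28.2 CPM and Hoxa10 stood at 23.4 and 25.4 CPM, between adipose and MEFs. Mesothelium also expresses Wt1. Of 11 mesothelial markers tested 1, Cldn15, was higher and 4, among them Msln at 1.3 and 0.69 CPM against 10.1 and 9.05 CPM, were lower, and the part of mesothelium in the Wt1 level was not tested.

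Genes of actin stress fibres and focal adhesions were lower in 11 of 39 and higher in 1, with a median of -0.774. Cnn1, calponin, read 0.839 and 0.446 CPM in the adipose libraries and 51 and 49.8 CPM in the MEF libraries (log2 fold change -6.35 ± 0.38, adjusted p = 3.66e-05). Acta2, smooth muscle actin, and Tagln, transgelin, read 49 and 50.4 CPM against 1380 and 1163 CPM (log2 fold change -4.68 ± 0.39, adjusted p = 0.000107) and 7.47 and 26.8 CPM against 464 and 497 CPM (log2 fold change -4.80 ± 0.60, adjusted p = 0.000629). Actn1, the cross-linker alpha-actinin, read 8.31 and 11.2 CPM against 134 and 164 CPM (log2 fold change -3.93 ± 0.29, adjusted p = 6.72e-05). The higher member was Pxn, the adhesion scaffold paxillin, at 157 and 151 CPM against 35.1 and 42.1 CPM. The pericyte and smooth muscle marker Myh11, in contrast, was higher in adipose, at 72.2 and 66.8 CPM against 5.97 and 2.91 CPM (log2 fold change 3.97 ± 0.57, adjusted p = 0.00116), and Des, desmin, at 229 and 143 CPM against 23.4 and 27.8 CPM (log2 fold change 2.86 ± 0.33, adjusted p = 0.00044).

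Targets of YAP and TEAD, the effectors of the Hippo pathway, were lower in 8 of 24 and higher in 3, with a median of -0.586. Dock5, Ptpn14 and Jub (the LIM protein Ajuba) were lower, at 2.52 and 2.68 CPM against 21.5 and 17.7 CPM, 6.4 and 9.49 CPM against 46.5 and 50.8 CPM and 11.4 and 5.64 CPM against 54.8 and 57.9 CPM. Gadd45b, a stress-response gene, was higher, at 276 and 498 CPM against 39.6 and 43.6 CPM (log2 fold change 3.22 ± 0.35, adjusted p = 0.000352). Of the genes for protein folding and secretion, 5 of 36 were higher and 2 lower, near the background, with a median of -0.227, and 3 of the 7 were agreed in recovered reads. P4ha3 led the lower ones, and Creb3l1, a membrane-bound secretory factor, and Dnajb9, an ER chaperone partner, were higher at 122 and 66.8 CPM against 13.4 and 10.7 CPM (log2 fold change 2.97 ± 0.36, adjusted p = 0.000526) and 24.4 and 24.4 CPM against 5.97 and 3.73 CPM (log2 fold change 2.33 ± 0.32, adjusted p = 0.000904). Leprel2, a collagen prolyl hydroxylase, read 442 and 248 CPM against 92.8 and 102 CPM (log2 fold change 1.82 ± 0.34, adjusted p = 0.00354). For Dnajb9 the limma fit on FPKM gave adjusted p = 0.0575.

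Guidance molecules differed in both directions, 10 higher and 12 lower of 48, with a median of -0.506. Slit3 and Ntn1, secreted ligands, were higher at 348 and 406 CPM against 14.8 and 9.62 CPM (log2 fold change 4.95 ± 0.34, adjusted p = 5.52e-05) and 115 and 109 CPM against 8.88 and 6.71 CPM (log2 fold change 3.85 ± 0.28, adjusted p = 7.02e-05). Unc5c, a netrin receptor, and Sema3a, a secreted semaphorin, were lower at 0.229 and 0.243 CPM against 22 and 26.2 CPM (log2 fold change -6.63 ± 0.42, adjusted p = 4.29e-05) and 1.45 and 3.89 CPM against 118 and 76.2 CPM (log2 fold change -5.14 ± 0.68, adjusted p = 0.000801). Of 35 cell-cell adhesion genes 9 were higher and 8 lower, with a median of -0.116. Cldn5 and Cdh5, junction proteins of endothelium, were higher, at 194 and 332 CPM against 0 and 0.0607 CPM (a ratio of 8720 in favour of adipose with a 95% counting interval of 2410 to 72000, adjusted p = 0.00015) and 47.3 and 31.2 CPM against 0.12 and 0 CPM (log2 fold change 9.22 ± 1.05, adjusted p = 0.000431), as was Cadm3 at 49.2 and 63.1 CPM against 0.33 and 0.121 CPM (log2 fold change 7.92 ± 0.48, adjusted p = 3.66e-05). Alcam, an adhesion molecule of the immunoglobulin family, was lower, at 0.152 and 0.446 CPM against 53.7 and 48.4 CPM (log2 fold change -7.25 ± 0.46, adjusted p = 4.34e-05).

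The count for genes of cell-cycle exit depended on the libraries and the table. Of 28 members 4 were higher and 4 lower, with a median of 0.133. Without adipose library 1, 9 were higher and 4 lower. Calls, which were 8 higher and 4 lower, became 12 higher and 5 lower in recovered reads, with a median of 0.602, and 2 higher and 7 lower with limma on log2(FPKM + 1). Cdkn2a, an inhibitor that rises in cultured cells, and Gas2, a growth-arrest gene, were lower, at 0.915 and 0.771 CPM against 14.6 and 39.2 CPM (log2 fold change -5.00 ± 0.95, adjusted p = 0.00413) and 0.686 and 0.973 CPM against 84.7 and 66.2 CPM (log2 fold change -6.46 ± 0.35, adjusted p = 3.27e-05). The cell-cycle regulator 1190002H23Rik was higher, at 306 and 96.6 CPM against 6.69 and 4.37 CPM (log2 fold change 5.18 ± 0.59, adjusted p = 0.000417), and so was Zfp36l1, an RNA-decay factor, at 220 and 439 CPM against 26 and 27.1 CPM (log2 fold change 3.64 ± 0.38, adjusted p = 0.000301). The inhibitors Cdkn1a and Cdkn1b, singled out after their values were seen, had log2 fold changes of 0.02 and 0.12 and were not called.

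**Figure D4:**
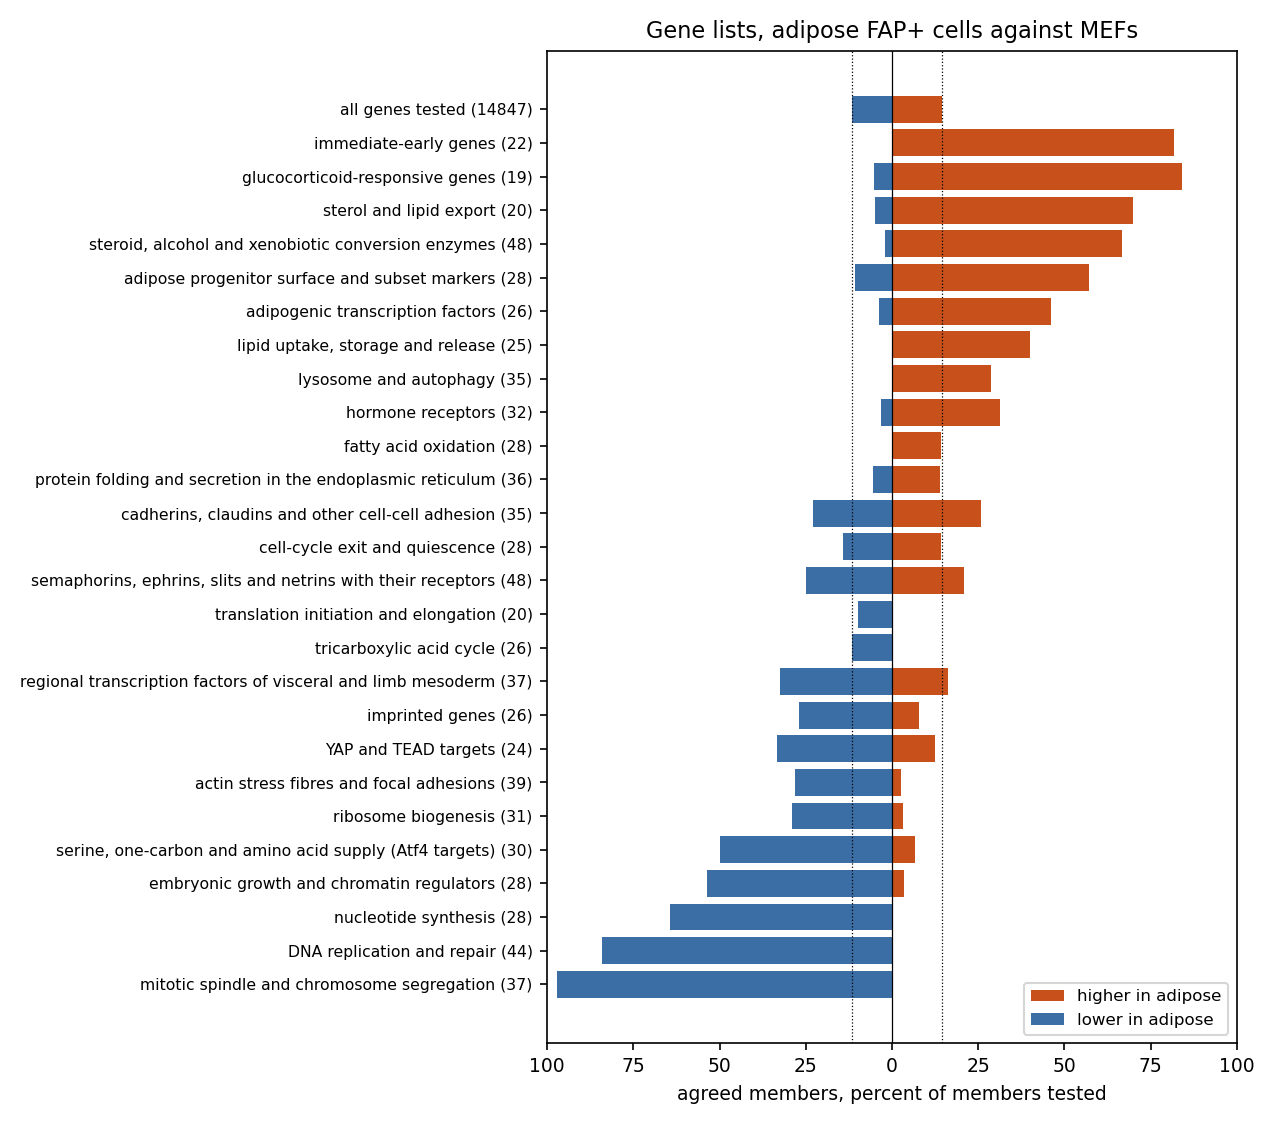
Share of tested members of each of 26 gene lists that were agreed higher (right) or agreed lower (left) in adipose, with the number tested in brackets. Dotted lines mark the shares over all genes tested, 14.4% and 11.5%. Mitotic genes reach 36 of 37 lower and glucocorticoid-responsive genes 16 of 19 higher.

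To see which differences from MEFs also set the adipose cells apart from other FAP+ cells, the agreed genes were tested directly against muscle and pancreas in the same fit. Against muscle 908 genes (6.12%) were called, 3.78% higher and 2.34% lower in adipose. Against pancreas 1344 (9.05%) were called, 5.73% higher and 3.32% lower. Of the agreed genes 304, 2.05% of all tested, differed from both in the direction seen against MEFs, 245 (1.65%) higher and 59 (0.397%) lower. This count rests on the pooled spread: it was 17 when each comparison was fitted on its own 2 groups, 588 in recovered reads, 373 without adipose library 1, 2554 without library 2, and 149 and 127 without MEF library 1 or 2.

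Among these genes, the 10 with the widest margin from both muscle and pancreas were all higher in adipose. The margin from MEFs was not part of this ranking. Hp, the haemoglobin-binding plasma protein haptoglobin, read 564 and 650 CPM in the adipose libraries and 1.83 and 0.455 CPM in the MEF libraries (log2 fold change 9.05 ± 0.83, adjusted p = 0.000167), with 3.44 and 1.33 CPM in muscle and 1.35 and 1.77 CPM in pancreas. Agt, angiotensinogen, the precursor of a vasoactive peptide that fat secretes, read 408 and 312 CPM in the adipose libraries and 0.66 and 0.729 CPM in the MEF libraries (log2 fold change 9.01 ± 0.50, adjusted p = 3.27e-05), with 8.36 and 7.25 CPM and 2.14 and 0.987 CPM in the other tissues. Sult1e1 held 9.89 and 4.29 CPM in muscle and 0.0521 and 0 CPM in pancreas, and Trf 58 and 90.4 CPM and 34.1 and 28.4 CPM. In each of these 4 genes both adipose libraries lay above all 6 others.

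Col6a5, a collagen VI chain, read 575 and 429 CPM in the adipose libraries and 0.03 and 0 CPM in the MEF libraries (a ratio of 33300 in favour of adipose with a 95% counting interval of 5970 to 1310000, adjusted p = 3.53e-05), with 3.32 and 7.89 CPM and 2.76 and 2.03 CPM in muscle and pancreas. Hpca, the calcium sensor hippocalcin, read 70.4 and 89.6 CPM in the adipose libraries and 0 and 0 CPM in the MEF libraries (at least 884-fold higher at the floor, adjusted p = 0.000112), with 1.66 and 5.11 CPM and 4.12 and 4.47 CPM in muscle and pancreas. Adam12, a membrane metalloprotease, read 48.3 and 46.5 CPM in the adipose libraries and 17 and 12.9 CPM in the MEF libraries (log2 fold change 1.66 ± 0.27, adjusted p = 0.00194), while muscle had 3.25 and 2.49 CPM and pancreas 2.66 and 3.07 CPM. In fragments the adipose libraries lay close together and above all 6 others in each of these 3 genes. In recovered reads Hpca read 11.9 and 43.4 CPM in the adipose libraries, Col6a5 863 and 778 CPM and Adam12 111 and 92.5 CPM. With limma on log2(FPKM + 1) the difference of Adam12 from MEFs did not pass, at adjusted p = 0.329.

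Also among the 10, Cldn5 and Fabp4 belong to cell types whose marker sums were themselves raised. Cldn5 read 2.81 and 12.5 CPM in muscle and 0.886 and 0.675 CPM in pancreas, and Fabp4 21.5 and 66.6 CPM and 2.19 and 2.6 CPM. Of the marker lists, 5 of 13 endothelial, 3 of 9 adipocyte, 3 of 9 myeloid and 3 of 10 pericyte members tested were among the 304 genes, Cspg4 of the pericyte list as a lower one. Their part in the other members of this group was not tested.

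**Figure D5:**
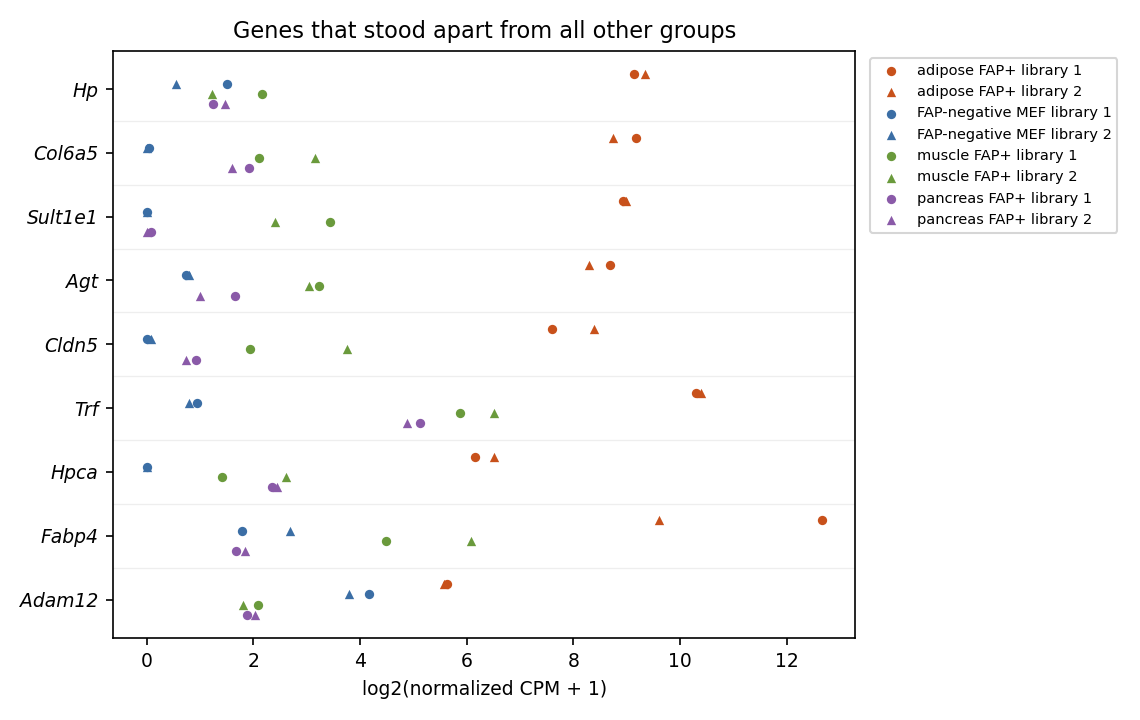
Levels in log2(normalized CPM + 1) of 9 of the 10 genes with the widest margin from both muscle and pancreas, with 1 point for each of 8 libraries. They were taken from the genes that were also agreed against MEFs. Both adipose points lie to the right of all other points for each gene drawn, and for Fabp4 the adipose libraries themselves differ, at 6445 and 782 CPM.

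Between the adipose libraries the largest differences, given as 1 library against 1 with no test, lay in short noncoding RNAs, ribosomal proteins, metallothionein and haemoglobin on the side of library 1. Snord104, a small nucleolar RNA, read 496 and 23.9 CPM, Rnu11, a spliceosomal RNA, 58.9 and 2.27 CPM, Rps27 154 and 8.39 CPM, Rps28 5001 and 422 CPM and Hba-a2, alpha globin, 1277 and 108 CPM. Higher in library 2 were Cap1, an actin regulator, at 3.35 and 90.9 CPM, the nuclear receptor Rora at 3.81 and 53.1 CPM, the histone demethylase Kdm6b at 43 and 474 CPM, the membrane-shaping Ehd2 at 29.9 and 295 CPM and the small GTPase Rnd1 at 17.9 and 153 CPM. The glycolytic enzyme Eno1 was listed at 0 in library 1 and at 72.3 CPM in library 2, with 695 and 776 CPM in MEFs. Of these 12 genes with Mt1, 4 met the agreement rule against MEFs: Mt1, Rnu11, Hba-a2 and Kdm6b. Rnu11 was not agreed in recovered reads, and Hba-a2 could not be tested there. In recovered reads Rps27 read 1.1 and 1.93 CPM in the adipose libraries and Eno1 0 and 0.344 CPM. The wide differences of these genes in fragments were thus not seen in reads. Library 1 was again the higher one for Snord104 (16.39 and 1.65 CPM), Rnu11 (2.47 and 0.275 CPM) and Rps28 (1426 and 201.5 CPM). Ribosomal protein, globin and Eno1 genes have near-identical copies or pseudogenes, so their values are uncertain where the counting could split reads. Kdm6b was not called without MEF library 1 or 2, at adjusted p = 0.0954 and 0.0628, nor was Rora, at 0.156 and 0.0573, or Rnd1, at 0.106 and 0.0511.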

How the data were processed

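RNA of sorted FAP+ cells and of MEFs was amplified from the poly(A) tail and sequenced, per the labels' protocols. Values come from 3 tables deposited by the authors: estimated counts of fragments per gene after a bias adjustment, FPKM of the same, and RPKM of read counts. The genome build mm9 and the tools TopHat2, Bowtie2, HTSeq and edgeR are listed, without versions or roles, in the submitters' processing notes. Which program made the bias adjustment is not stated there. Each table holds 6 further columns of other samples, which were not used.

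Fragments were rounded to whole numbers, filtered with filterByExpr (14847 of 22558 genes kept), scaled by TMM and tested with edgeR 4.0.16 (R 4.3.3) by the quasi-likelihood test over all 8 libraries in 4 groups, with Benjamini-Hochberg adjustment. The biological coefficient of variation was 33.2%, with 4 residual degrees of freedom. Whole reads were recovered from the RPKM steps for 20957 of 22609 genes, with 99.962% of values whole within 0.0001 reads, and tested in the same way, which called 8120 of 14359 genes (56.5%). These reads total 9490635 to 16797213 per library, and fragments 15516319 to 27759399. Limma 3.58.1 on log2(FPKM + 1), DESeq2 1.42.0, other scalings, filters, agreement rules and left-out libraries were alternatives. No TMM scaling was applied to the FPKM values in the limma fits. The edgeR fit and the agreement rule for adipose against MEFs were run on simulated data with the same spread in all libraries. That spread was smaller than the 33.2% found here, and the wider spread of the adipose libraries was not simulated. The limma, DESeq2, blocked and 2-fold fits were not run on simulated data. Counting intervals and floors cover counting error only.

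Gene lists were written from textbook roles, and the members and lists were chosen with earlier results of these data known. Named genes were, by rule, up to 4 agreed members per list with the widest gap, and Fap. The rule added the 12 highest and 12 lowest agreed genes outside the complement, cytokine and matrix lists. It also took the 10 genes farthest from both muscle and pancreas among those set apart from all groups. The 2 most abundant markers per other cell type were included. So were the 6 most unequal genes of 50 CPM or more on the side of each adipose library. A few genes that the rule names are not reported here. Replicate numbers were not taken as pairing samples, since the labels tie them to no shared source: same-numbered deviations correlated at -0.216 between adipose and MEFs, 0.208 between adipose and muscle and 0.447 between adipose and pancreas. Promoters are RefSeq sequences of GRCm38.p6, not mm9, and were searched on both strands for the NF-Y box CCAAT, the cell-cycle core TTTGAA, the cyclic AMP element TGACGTCA, the E-box CACGTG, the TATA box TATAAA, the Sp1 box GGGCGG and the E2F element TTGGCGC.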

Additional observations from a re-analysis of the deposited data

Results flagged for a closer look

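In 8 genes, those named by the rule and those with the pattern in both tissues, the adipose libraries lay above both MEF libraries. Both libraries of another FAP+ tissue lay below the MEF libraries, and the adipose cells differed from that tissue in edgeR's quasi-likelihood test. Lipg, endothelial lipase, read 15.3 and 10.1 CPM against 1.47 and 1.55 CPM in MEFs, with 0.191 and 0.3 CPM in muscle and 0.156 and 0.312 CPM in pancreas. Its log2 difference was 5.62 from muscle (adjusted p = 0.00257) and 5.72 from pancreas (adjusted p = 0.00263). Adam12 differed by 4.05 from muscle (adjusted p = 0.00145) and by 4.05 from pancreas (adjusted p = 0.00174). Gcnt2, a glycan-branching enzyme, read 30.6 and 31.9 CPM against 14.4 and 9.8 CPM in MEFs, with log2 differences of 3.35 from muscle (adjusted p = 0.00445) and 3.03 from pancreas (adjusted p = 0.00425). S1pr1, the sphingosine-1-phosphate receptor found on endothelium, read 26.7 and 27.4 CPM against 11.9 and 8.07 CPM in MEFs, and differed by 3.12 from muscle (adjusted p = 0.00816) and 5.31 from pancreas (adjusted p = 0.00263).

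Egfl7, an endothelial gene, differed by 4.96 from pancreas (adjusted p = 0.011) and 1190002H23Rik by 8.05 (adjusted p = 0.00263). Tcf21 differed by 13.31 from muscle (adjusted p = 0.00128) and Wt1 by 9.90 (adjusted p = 0.000599), with 0.128 and 0 CPM and 0.0638 and 0.0858 CPM in muscle. Muscle is at or under the floor for both, so these fitted values depend on the prior count and are no bound. Over all genes this pattern of calls, counted in either direction, occurred in 39, of which 17 involved muscle, 26 pancreas and 4 both. Of the 39, 31 were agreed in both tables. Adipose was the higher side in 26 and the lower in 13. Hand2, named above outside the rule, was among the 13, with 25.8 and 19.9 CPM in pancreas.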

How the results depend on the processing

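The number of genes called (7445) was 4588 with only adipose and MEF libraries fitted, 4227 against a 2-fold change and 4321 (without MEF library 1) to 9491 (without adipose library 2) when 1 library was left out. Agreed genes (3840) numbered 6233 with limma on log2(FPKM + 0.1), 1564 with differences of at least 2, 7420 with differences above 0, and 3796 (without MEF library 1) to 6866 (without adipose library 2). The 304 genes apart from all groups became 17 with each pair of groups fitted alone, 588 in recovered reads and 127 (without MEF library 2) to 2554 (without adipose library 2). With the replicate block the counts were 7202, 3846 and 248. Of the 135 named genes called, 135 stayed called under the block and Krt8 was added as a call (adjusted p = 0.0131). A block with the MEF numbers crossed called 7883 genes.

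Of list counts, agreed members without adipose library 1 numbered 13 for quiescence, 17 for ribosome biogenesis, 5 for translation and 5 for the tricarboxylic acid cycle, and with recovered reads also required lysosome had 6 and folding 3. Of the fold changes recomputed for named genes, 2077 kept direction and side of the threshold, 46 lost and 20 gained the call, and 12 changed sign. Leaving out 1 library gave -0.52 to 15.40 for Snord104, -2.17 to 4.42 for Rps27, -0.087 to 3.47 for Rps28, -4.41 to 1.18 for Cap1 and -2.92 to 0.39 for Ehd2. Signs changed without adipose library 1 for all 5 (Cap1 0.35) and without MEF library 2 for Cap1. They also changed, with limma on log2(FPKM + 1), with or without a filter at 1 FPKM, for Mbp (-0.11) and Rps27 (-0.024), and with log2(FPKM + 0.1) for Mbp (-0.39) and Rps27 (-0.0064). The causes were not tested.

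List medians changed sign under other scalings for cadherins (0.09 in recovered reads) and fatty acid oxidation. With limma on log2(FPKM + 1), where the median of all tested genes was -0.65, medians were negative for lipid uptake (-0.41), hormone receptors (-0.11), quiescence (-0.59), fatty acid oxidation (-0.86) and lysosome (-0.06). All of these but fatty acid oxidation lay above the median of all genes.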
